A study of Homo sapiens with 12 samples.

Results

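The genes described here belong to the TNF superfamily: 16 ligands, 18 receptors, and TRAF1 and BIRC3, which act downstream of the receptors, 36 genes in all. They were chosen by name through the platform annotation, and each is represented by 1 probe set, the brightest on average over 12 arrays among those that name it alone. By this rule 33 of the 36 were measured, out of 19775 genes on the array: 14 ligands, all 18 receptors and TRAF1. TNFSF12 is named only on 2 probe sets that carry several genes, and CD40LG and BIRC3 on none in the annotation used, so these 3 are not analysed here.

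The RNA came from U937, an established human line of monocyte-like leukaemia cells. Cells carrying an empty vector (U937_vec) were compared with cells carrying a vector for EVI1 (U937_EVI1), a transcription factor whose gene is now called MECOM. Both populations were exposed for 24 h to TPA at 50 ng/ml, a phorbol ester and activator of protein kinase C, or to ethanol (EtOH), its solvent. The 4 groups held 3 arrays each, labelled as biological replicates. The promoter of the vector, and whether a population is a pool or a clone, are not given in the sources used here. The 5 probe sets named MECOM read 2.59 to 3.32 on the 12 arrays, below the lowest array median of 5.07, so the vector's transcript is not shown by these arrays and that population is called EVI1-labelled.

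Ligands of the TNF superfamily are trimeric proteins, most of them made at the cell surface and some released by proteases. They bind receptors that either recruit TRAF adaptors, which activate NF-kB and MAP kinases, or carry a death domain through which caspases can be activated, while decoy receptors bind ligand without passing a death signal. In monocytes and macrophages TNF is a main inflammatory product, and BAFF, encoded by TNFSF13B, keeps B cells alive.

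All values are log2 probe set signals. Levels are given for each array or as means of 3 arrays, and differences are given with the standard error (SE) of a limma fit over all arrays. A gene was called at an adjusted p under 0.05 over all 19775 genes, and a group mean below 5.07 is treated as not shown above background. Of the 33 genes, 26 were at or above that level in all 4 groups. TNFSF15 and TNFRSF11A were below it in both ethanol groups, and TNFSF11, FASLG, TNFRSF9, TNFRSF10A and TRAF1 were below it in all 4. Levels of different genes are not compared, because each probe set has its own brightness.

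Arrays of a group correlated at 0.991 to 0.997. Replicate 3 of the TPA-treated EVI1-labelled cells stood apart: the mean of 11 interferon-response genes, chosen after their values were seen, was 9.49 there against 7.53 and 7.56 in replicates 1 and 2. For several results that rest on that array, values without it are given too. The gap between the 3′ and 5′ control probe sets of ACTB, a sign of RNA or labelling quality, was 1.72 to 2.01 on ethanol arrays and 1.17 to 1.64 on TPA arrays. That of GAPDH was 0.39 to 0.80 on ethanol arrays and 0.30 to 0.61 on TPA arrays, so its ranges overlapped. The ACTB gap moved with treatment, and its part in the TPA results was not tested. Of 9 measured myelomonocytic markers, 8 exceeded 5.07 in at least 1 group (FCGR1A did not), and the mean of the 9 went from between 6.83 and 7.01 to between 7.76 and 8.07 with TPA in empty vector cells and from between 6.93 and 7.0 to between 7.45 and 7.58 in EVI1-labelled cells. These markers went both ways: in empty vector cells ITGAM went from a mean of 5.08 to 10.03, CSF1R from 5.86 to 9.19 and CD14 from 4.74 to 6.75, while LYZ went from 12.87 to 11.58, MPO from 6.01 to 5.38 and CEBPA from 11.16 to 10.53. In EVI1-labelled cells ITGAM went from 4.59 to 8.52, CSF1R from 5.99 to 8.98 and CEBPA from 11.05 to 11.36. LYZ went from 12.86 to 11.23 there and MPO from 6.86 to 5.81, while CD14 was at 5.11 and 5.05. The mean of 5 measured B cell markers was 5.20 to 5.46 in ethanol and 4.86 to 4.93 in TPA in empty vector cells, and 5.51 to 5.68 and 5.03 to 5.11 in EVI1-labelled cells. Of these 5, MS4A1 was below 5.07 in every group, and PAX5 went from a mean of 7.33 to 4.86 and from 8.23 to 5.54. Of 7 T cell markers, CD3E, CD3G, CD2, CD8A and TRAT1 were below 5.07 throughout, and 2 exceeded it in at least 1 group, as did 4 of 5 NK cell, 3 of 3 erythroid and 2 of 6 epithelial and stromal markers. The part of these markers in the results below was not tested. In bulk RNA, fewer cells of a type and less RNA per cell cannot be told apart.

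TPA raised many more of these genes than it lowered. In empty vector cells 21 of 33 were called, 17 higher and 4 lower, beside 43.2% of all genes called, 20.7% higher and 22.5% lower. In EVI1-labelled cells 18 were called, 16 higher and 2 lower, beside 40% of all genes, 19.4% higher and 20.6% lower. The median difference over the 33 genes was 0.29 with the empty vector and 0.22 in EVI1-labelled cells, against 0.02 and 0.00 over all genes. The direction was mixed among ligands, with 6 higher and 4 lower of 14 in empty vector cells, and 5 and 2 of 14 in the EVI1-labelled population; their median difference was 0.05 and 0.08. Among the 18 receptors 10 were higher in each population and none was called lower, with a median difference of 0.33 and 0.36. A difference of at least 1 was called for 13 members in empty vector cells, where 15.5% of all genes were, and for 12 in EVI1-labelled cells, where 13.5% were. The 2 TPA differences share no array, but their tests share 1 estimate of the spread per gene from all 12 arrays, so the calls are not independent.

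Of the ligands, TNFSF15, also known as TL1A, a ligand of the death receptor encoded by TNFRSF25, had the largest TPA difference in both populations. In empty vector cells it read 4.15, 4.13 and 4.0 in ethanol and 9.70, 10.06 and 9.23 in TPA. In EVI1-labelled cells it read 4.45, 4.36 and 3.81 in ethanol and 7.77, 7.55 and 7.88 in TPA. All 6 ethanol arrays lay below 5.07, all 6 TPA arrays lay far above it, and the TPA arrays of the populations did not overlap. TPA raised it by 5.57 ± 0.19 (SE) in empty vector cells (adjusted p = 3.54e-11) and by 3.53 ± 0.19 in EVI1-labelled cells (adjusted p = 3.3e-09). Because the ethanol level is not shown above background, these differences may understate the change in RNA.

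TNF encodes the cytokine for which the family is named. It read 6.10, 6.34 and 6.14 in ethanol and 9.39, 9.29 and 9.68 in TPA in empty vector cells. In EVI1-labelled cells the arrays were at 6.26, 6.5 and 6.77 in ethanol and 8.31, 8.04 and 8.41 in TPA. The ethanol arrays of the populations overlapped and the TPA arrays did not. The TPA difference was 3.26 ± 0.14 (adjusted p = 2.9e-10), or 9.58-fold, in empty vector cells and 1.74 ± 0.14 (adjusted p = 1.74e-07), or 3.35-fold, in EVI1-labelled cells. Its neighbours on chromosome 6, LTB and LTA, encode the lymphotoxin subunits. LTB rose by 0.61 ± 0.09 and 0.44 ± 0.09 in the 2 populations (adjusted p = 5.3e-05 and 0.00108), whereas LTA gave 0.14 and 0.09 and was not called.

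TNFSF14, also called LIGHT, is a ligand of the receptors encoded by TNFRSF14 and LTBR. Its signal was 5.90, 5.65 and 5.61 in ethanol and 7.5, 7.11 and 7.49 in TPA in empty vector cells. The EVI1-labelled population was at 5.89, 5.96 and 5.86 in ethanol and 7.52, 7.77 and 6.96 in TPA. The treatments did not overlap in either population, and the populations overlapped in each treatment. It rose by 1.65 ± 0.17 and 1.51 ± 0.17 (adjusted p = 1.68e-06 and 4.54e-06). Smaller rises were called for TNFSF13, which encodes APRIL, a relative of BAFF (0.53 and 0.40). TNFSF4, the ligand of the T cell costimulator encoded by TNFRSF4, rose in empty vector cells by 0.90 ± 0.20 (adjusted p = 0.002), and gave 0.03 ± 0.20 in EVI1-labelled cells.

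TNFSF13B was the most lowered member in both populations. In empty vector cells it read 11.36, 11.47 and 11.34 in ethanol and 9.23, 9.24 and 8.64 in TPA. In EVI1-labelled cells it read 11.51, 11.44 and 11.53 in ethanol and 8.85, 8.46 and 9.88 in TPA, where replicate 3, the array that stood apart, was the highest. No TPA array reached an ethanol array. The difference was -2.35 ± 0.27 (adjusted p = 4e-06), or 5.11-fold, and -2.43 ± 0.27 (adjusted p = 3.38e-06), or 5.39-fold, and -2.84 in EVI1-labelled cells without that array.

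CD70, the ligand of the lymphocyte costimulator CD27, also fell. It was at 8.98, 9.21 and 9.01 in ethanol and 7.41, 7.22 and 7.03 in TPA in empty vector cells. In EVI1-labelled cells its signal was 9.04, 8.97 and 9.20 in ethanol and 7.62, 7.43 and 7.49 in TPA. The treatments did not overlap, and every TPA array of EVI1-labelled cells was above every TPA array of empty vector cells. The differences were -1.85 ± 0.11 and -1.56 ± 0.11 (adjusted p = 5.08e-09 and 3.52e-08). TNFSF9, CD70 and TNFSF14 are consecutive protein-coding genes on chromosome 19, and within this run TNFSF14 rose and CD70 fell. TNFSF9, the ligand of the costimulator encoded by TNFRSF9, fell by 0.29 ± 0.10 in empty vector cells (adjusted p = 0.0359), a call lost without any of the 6 arrays of those cells in turn (adjusted p up to 0.0899). In EVI1-labelled cells it gave 0.22 ± 0.10 and was not called, but without replicate 2 in TPA it gave 0.30 ± 0.11 (adjusted p = 0.048) and without replicate 3 in ethanol 0.32 ± 0.10 (adjusted p = 0.0229).

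TNFSF10 encodes TRAIL, a ligand that can trigger cell death through the receptors encoded by TNFRSF10A and TNFRSF10B. It read 6.55, 6.13 and 6.22 in ethanol and 5.22, 5.50 and 4.74 in TPA in empty vector cells. The EVI1-labelled population read 5.69, 5.25 and 5.78 in ethanol and 4.83, 5.02 and 7.10 in TPA. The value of 7.10 came from the array that stood apart. The difference in empty vector cells was -1.15 ± 0.44 (adjusted p = 0.0489), a call lost without any of the 9 arrays of the other groups in turn (adjusted p up to 0.166) and kept without any array of the TPA-treated EVI1-labelled cells; without the array that stood apart the SE was 0.19 (adjusted p = 0.000161). In EVI1-labelled cells the difference was 0.08 ± 0.44 with that array and -0.65 ± 0.21 without it (adjusted p = 0.0246). With all arrays its other probe sets gave -1.68 and -0.54 in empty vector cells, and -0.21 and 0.50 in EVI1-labelled cells. The last of these, with a highest group mean of 4.99, read 4.42 and 4.74 in TPA replicates 1 and 2 against 4.30, 4.02 and 4.44 in ethanol. The fall without that array was thus not seen on every probe set. The other ligands, TNFSF8, TNFSF11 and FASLG, gave TPA differences between -0.13 and 0.06, and none was called.

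**Figure D1:**
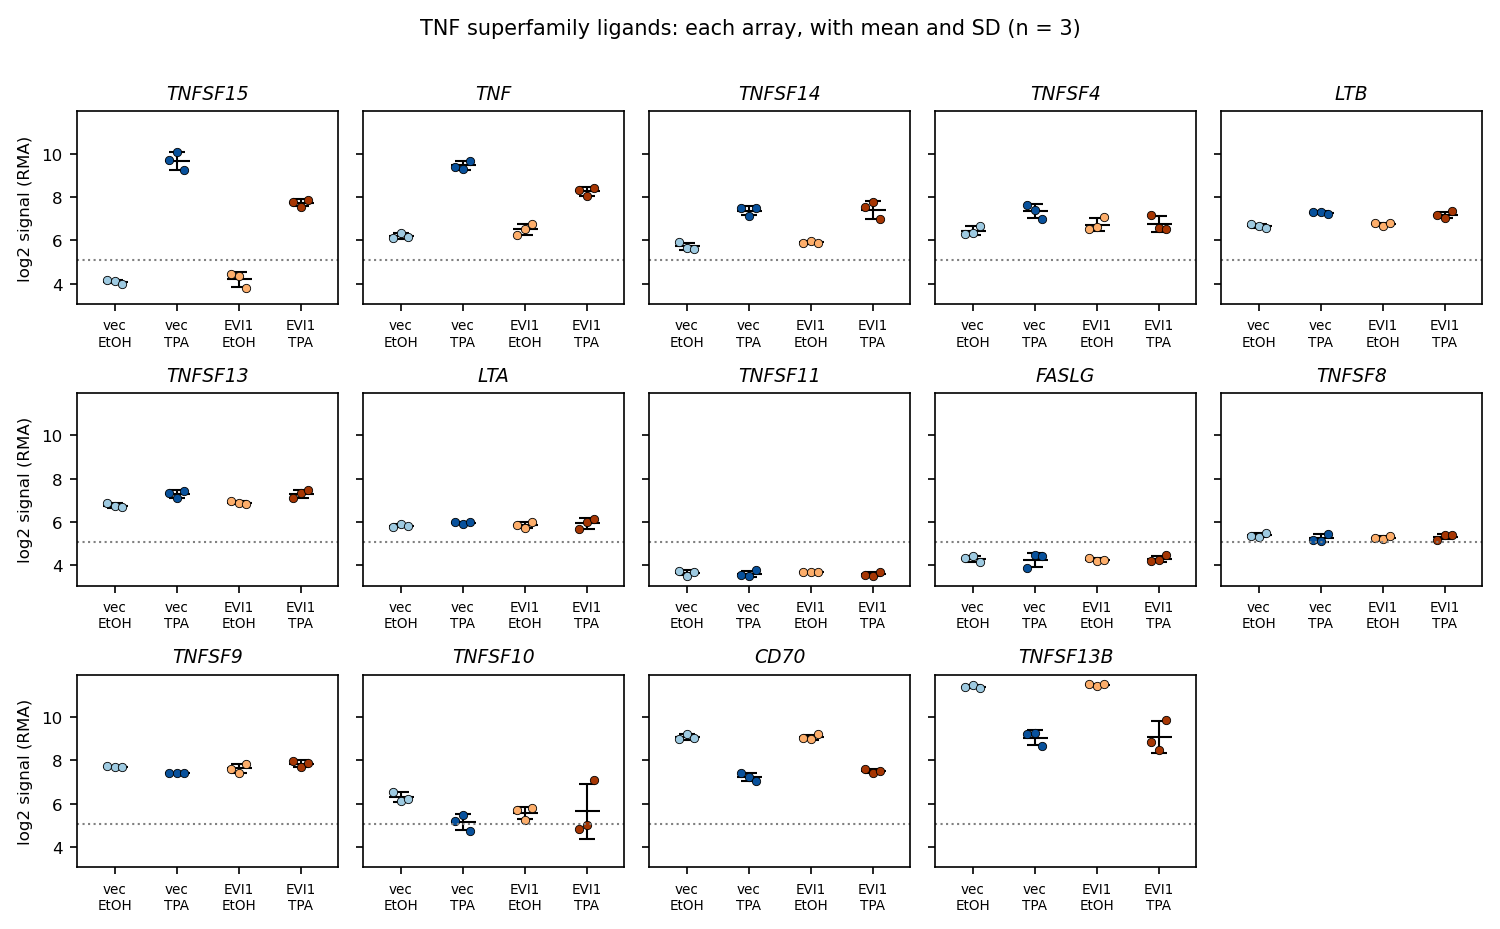
Log2 RMA signal of the 14 measured ligands in each array, by group (vec, empty vector; EVI1, EVI1-labelled; EtOH, ethanol), with the mean and SD of 3 arrays; the dotted line is the lowest array median, 5.07. TNFSF15 and TNF are higher in TPA, and less so in EVI1-labelled cells, while TNFSF13B and CD70 are lower in TPA in both populations.

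The sequences just before the start sites of 5 ligands are shown because these genes moved in different directions or to different degrees. Windows from the RefSeq promoter table (GRCh38.p14) were searched for 25 of the 36 genes. The receptor genes TNFRSF10A, TNFRSF10B, TNFRSF10C and TNFRSF10D were left out of this search. The 25 is therefore not a count of all members that the RefSeq table may hold. The 250 bases before the annotated start were searched on both strands for TGANTCA and for the NF-kB consensus. TGANTCA is the core of sites for AP-1, a factor that phorbol esters activate. The motifs did not overlap one another in the windows printed. Capitals mark matches.
TNF, chr6:31575315-31575564, plus strand: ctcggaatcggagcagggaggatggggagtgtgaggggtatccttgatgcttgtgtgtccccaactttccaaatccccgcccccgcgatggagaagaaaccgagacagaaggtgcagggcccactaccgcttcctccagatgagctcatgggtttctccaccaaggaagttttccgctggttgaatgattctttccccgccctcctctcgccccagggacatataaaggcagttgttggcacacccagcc
LTB, chr6:31582426-31582675, minus strand: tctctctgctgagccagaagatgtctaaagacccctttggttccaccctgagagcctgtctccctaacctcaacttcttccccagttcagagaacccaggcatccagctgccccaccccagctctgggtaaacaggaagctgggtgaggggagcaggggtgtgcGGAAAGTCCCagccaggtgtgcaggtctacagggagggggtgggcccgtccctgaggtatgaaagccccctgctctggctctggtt
TNFSF15, chr9:114792531-114792780, minus strand: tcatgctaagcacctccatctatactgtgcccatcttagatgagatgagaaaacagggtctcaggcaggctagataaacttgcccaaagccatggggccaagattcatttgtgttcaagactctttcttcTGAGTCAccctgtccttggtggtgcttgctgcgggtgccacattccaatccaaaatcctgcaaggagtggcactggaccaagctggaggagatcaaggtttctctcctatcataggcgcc
TNFSF14, chr19:6670161-6670410, minus strand: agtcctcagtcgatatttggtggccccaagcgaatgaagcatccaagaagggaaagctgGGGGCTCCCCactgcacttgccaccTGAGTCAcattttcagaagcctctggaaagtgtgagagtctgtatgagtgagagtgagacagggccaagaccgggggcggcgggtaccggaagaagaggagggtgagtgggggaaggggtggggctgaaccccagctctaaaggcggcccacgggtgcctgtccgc
TNFSF13B, chr13:108269379-108269628, plus strand: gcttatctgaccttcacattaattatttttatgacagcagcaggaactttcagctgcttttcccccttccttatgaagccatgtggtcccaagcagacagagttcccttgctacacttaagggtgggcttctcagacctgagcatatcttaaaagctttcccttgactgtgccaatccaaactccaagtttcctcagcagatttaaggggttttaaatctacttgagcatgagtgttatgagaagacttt
The AP-1 match lay 120 to 114 bases before the start in TNFSF15 and 166 to 160 bases before it in TNFSF14. An NF-kB match lay 191 to 182 bases before the start in TNFSF14 and, on the opposite strand, 86 to 77 bases before it in LTB. The windows of TNF and TNFSF13B held neither set of letters, which says only that they are not in these 250 bases. Among the 25 genes searched, 5 had an AP-1 match and 8 an NF-kB match in any window, and 8.06% and 6.28% of the 27305 genes tabulated did. Per window the shares were 6.57% and 5.21% of 35116. A match is a run of letters and not a measured binding site.

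The receptors moved in 1 direction or were not called. TNFRSF21, which encodes the death domain receptor DR6, read 8.74, 8.63 and 8.74 in ethanol and 11.73, 11.71 and 11.92 in TPA in empty vector cells. In EVI1-labelled cells it read 9.16, 8.99 and 9.22 in ethanol and 11.75, 11.74 and 12.15 in TPA. The treatments were far apart, and the populations overlapped in TPA only. It rose by 3.08 ± 0.11 (adjusted p = 6.13e-11), or 8.48-fold, and by 2.76 ± 0.11 (adjusted p = 2.26e-10), or 6.76-fold.

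TNFRSF11A encodes RANK, the receptor for the ligand of TNFSF11 that monocyte precursors need to become osteoclasts. It read 3.25, 3.69 and 4.22 in ethanol and 6.61, 6.81 and 6.74 in TPA in empty vector cells. The EVI1-labelled population read 4.25, 3.53 and 4.12 in ethanol and 6.43, 6.54 and 6.72 in TPA. The ethanol arrays were all below 5.07 and the TPA arrays all above it. The differences were 3.00 ± 0.21 and 2.60 ± 0.21 (adjusted p = 3.7e-08 and 1.98e-07). As the ethanol means, 3.72 and 3.97, are not shown above background, the size of the change is not settled, and the other probe set read 0.86 and 0.55. TNFSF11 itself stayed between group means of 3.6 and 3.69, not shown above background.

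Both receptors for TNF rose. TNFRSF1B, the form largely restricted to blood and endothelial cells, read 8.84, 8.84 and 8.74 in ethanol and 10.99, 11.30 and 10.95 in TPA in empty vector cells. In EVI1-labelled cells it was at 8.71, 8.81 and 8.77 in ethanol and at 10.40, 10.44 and 10.68 in TPA. The TPA arrays of EVI1-labelled cells were all below those of empty vector cells. TNFRSF1B rose by 2.27 ± 0.10 and 1.74 ± 0.10 (adjusted p = 4.24e-10 and 7.3e-09). TNFRSF1A, the widely expressed death domain form, rose by 0.37 ± 0.08 in each population (adjusted p = 0.00202 and 0.00231), and LTBR, the lymphotoxin receptor gene near it on chromosome 12, by 0.37 ± 0.09 and 0.36 ± 0.09 (adjusted p = 0.00468 and 0.00568). The call for LTBR was lost in both populations with the mean over its 4 probe sets, at 0.09 and 0.085 (adjusted p = 0.402 and 0.465), and its 3 dimmer probe sets read between -0.11 and 0.11. CD27, on the same stretch of chromosome 12, gave 0.08 and 0.17 and was not called.

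Of the 4 TRAIL receptors, whose genes lie together on chromosome 8, 2 were called higher in TPA in each population. TNFRSF10B, the death receptor DR5, read 8.25, 8.14 and 8.23 in ethanol and 9.92, 9.68 and 9.81 in TPA in empty vector cells. The EVI1-labelled population read 8.62, 8.53 and 8.65 in ethanol and 9.70, 9.50 and 9.70 in TPA. The populations were apart in ethanol and overlapped in TPA. It rose by 1.60 ± 0.09 and 1.03 ± 0.09 (adjusted p = 2.69e-09 and 2.66e-07). TNFRSF10D, a decoy with an incomplete death domain, read 6.58, 6.59 and 6.91 in ethanol and 8.34, 8.70 and 8.80 in TPA in empty vector cells. In EVI1-labelled cells its arrays were at 6.5, 6.46 and 6.97 in ethanol and 8.39, 8.29 and 8.11 in TPA. It rose by 1.92 ± 0.15 and 1.62 ± 0.15 (adjusted p = 1.21e-07 and 8.26e-07), and the treatments did not overlap in either population. The decoy TNFRSF10C gave -0.05 and -0.01 and the death receptor TNFRSF10A -0.17 and 0.06, neither called, and TNFRSF10A was below 5.07 in every group mean.

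TNFRSF12A encodes Fn14, the receptor for the ligand of TNFSF12. It was at 6.81, 6.88 and 7.03 in ethanol and 8.49, 8.42 and 8.72 in TPA in empty vector cells. In EVI1-labelled cells it was at 7.0, 7.02 and 7.10 in ethanol and 8.58, 8.58 and 8.96 in TPA. The rise was 1.64 ± 0.11 and 1.67 ± 0.11 (adjusted p = 2.9e-08 and 3.01e-08), with no overlap of the treatments.

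TNFRSF14, also called HVEM, read 5.63, 5.64 and 5.26 in ethanol and 6.70, 6.75 and 7.04 in TPA in empty vector cells. The EVI1-labelled population read 5.75, 5.69 and 6.16 in ethanol and 7.24, 6.86 and 7.47 in TPA. It rose by 1.32 ± 0.17 in each population (adjusted p = 1.34e-05 and 1.49e-05), so TNFSF14 and its receptor TNFRSF14 were both higher in TPA. TNFRSF4 rose by 0.29 ± 0.09 in empty vector cells (adjusted p = 0.015), and gave 0.03 ± 0.09 in EVI1-labelled cells. That call was lost without replicate 1 in ethanol or replicate 3 in TPA of the empty vector cells, with the mean over probe sets (0.12, adjusted p = 0.384), and with the probe set of largest variance, where the direction turned (-0.05, adjusted p = 0.819). FAS, the receptor of the death ligand FASLG, rose by 0.35 ± 0.08 in EVI1-labelled cells (adjusted p = 0.00281) and gave 0.08 ± 0.08 in empty vector cells. CD40, TNFRSF8, TNFRSF9 and TNFRSF25 gave TPA differences between -0.06 and 0.22, none of them called. In empty vector cells TNFRSF9 was called with the mean over probe sets (0.24, adjusted p = 0.0356) and TNFRSF25 without replicate 1 in TPA (0.275, adjusted p = 0.0489).

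**Figure D2:**
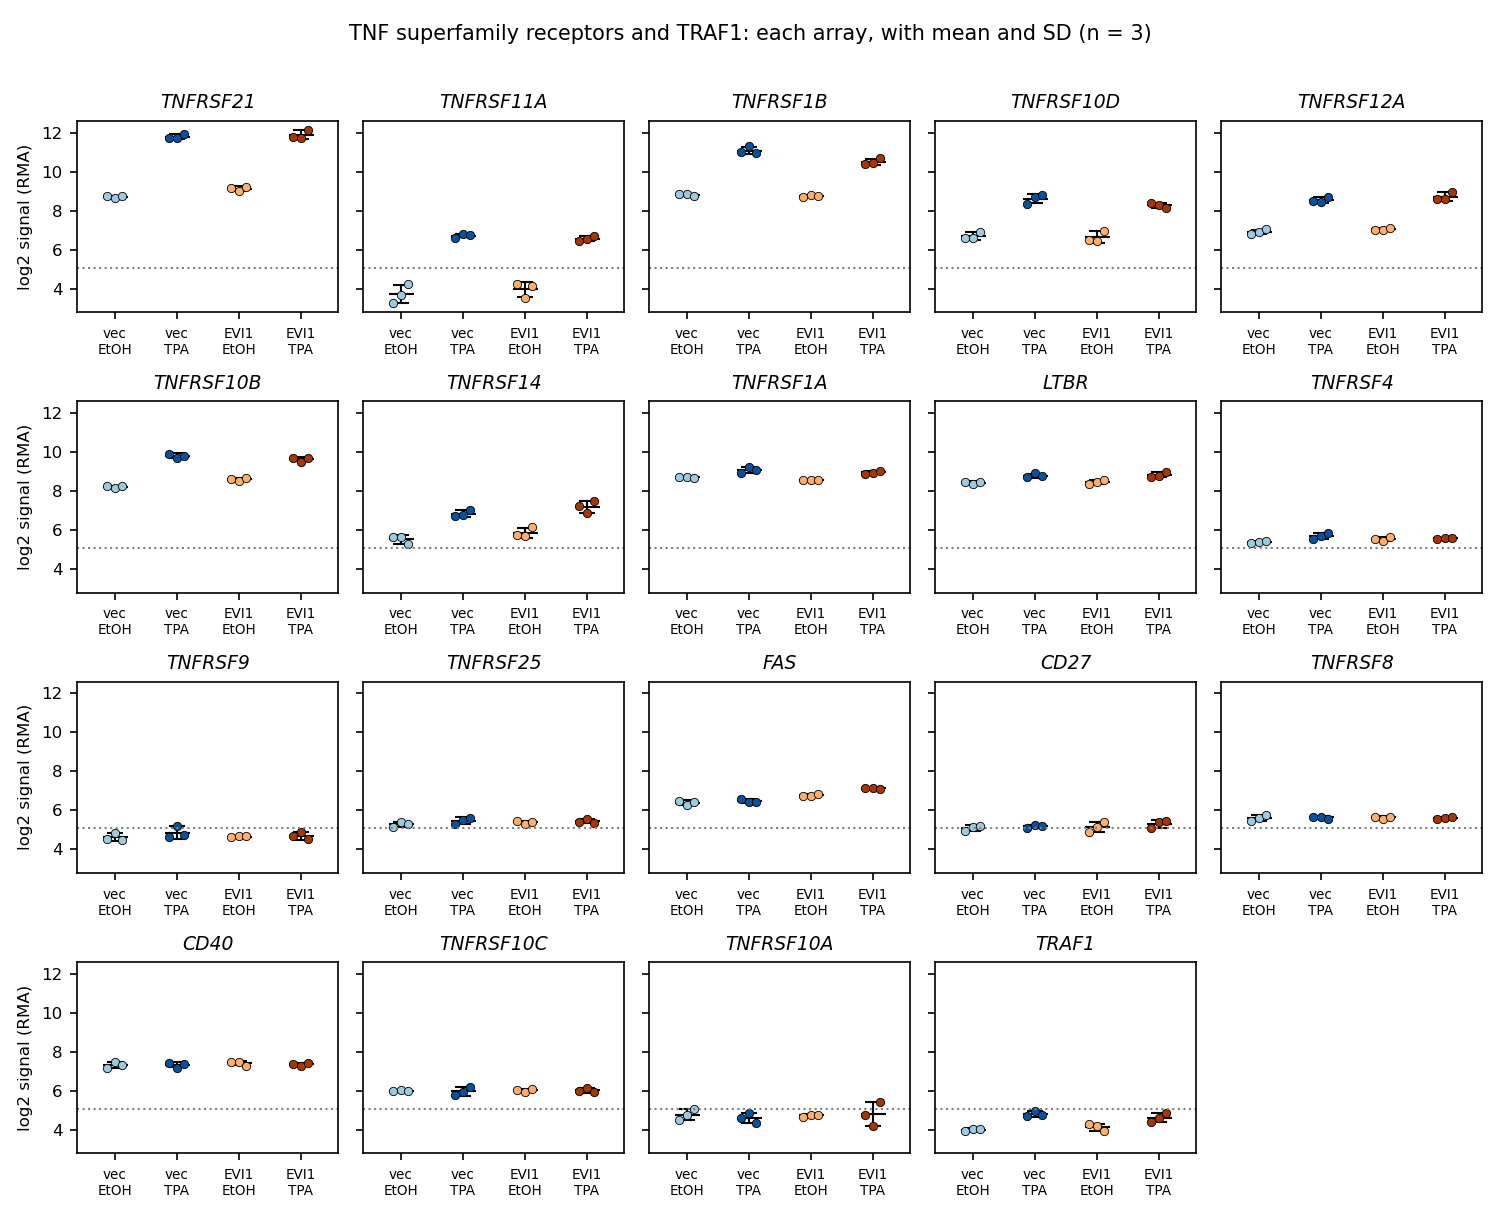
Log2 RMA signal of the 18 receptors and TRAF1 in each array, by group, with the mean and SD of 3 arrays; the dotted line is the lowest array median, 5.07. TNFRSF21 and TNFRSF1B lie well above their ethanol arrays in TPA in both populations, and the ethanol arrays of TNFRSF11A lie below the dotted line.

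TRAF1, an adaptor recruited by several of these receptors, was called higher in TPA in both populations, by 0.81 ± 0.12 and 0.50 ± 0.12 (adjusted p = 6.44e-05 and 0.00424). Its group means lay between 4.0 and 4.81, below the lowest array median, so the level is not shown above background.

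Without TPA the populations differed little in this family. In ethanol 2 of 33 genes were called, both receptors and both higher in EVI1-labelled cells, beside 3.27% of all genes called, 1.32% higher and 1.95% lower. They were TNFRSF10B, with 0.39 ± 0.09 (adjusted p = 0.0248), and FAS, with 0.37 ± 0.08 (adjusted p = 0.0228). FAS, given by array after its values were seen, read 6.49, 6.26 and 6.45 in empty vector cells and 6.74, 6.75 and 6.83 in EVI1-labelled cells, and the arrays did not overlap. The call for TNFRSF10B was lost without any of the 6 ethanol arrays and that for FAS without any of them but replicate 1 of empty vector cells, with adjusted p up to 0.104 and 0.103. No ligand passed the limma test in ethanol, and 1 ligand, TNF, had an unadjusted p under 0.05 (0.32 ± 0.14, adjusted p = 0.369). TNFSF10 gave -0.73 ± 0.44, and the same value had an adjusted p of 0.0498 with the SE of 0.19 found without replicate 3 of the TPA-treated EVI1-labelled cells. Without that array TNFRSF21, at 0.42 ± 0.11 and an adjusted p of 0.0684 with it, had an adjusted p of 0.0156.

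In TPA 5 of 33 genes were called between the populations, 2 higher and 3 lower in EVI1-labelled cells, beside 11.2% of all genes, 5.9% higher and 5.3% lower. For 2 of the 5 the difference was at least 1, as for 1.59% of all genes. TNFSF15 was lower in EVI1-labelled cells, with a difference of -1.93 ± 0.19 (adjusted p = 2.97e-05), or 3.81-fold. TNF was lower, at -1.2 ± 0.14 (adjusted p = 0.000105), or 2.30-fold, and so was its receptor TNFRSF1B, at -0.57 ± 0.10 (adjusted p = 0.0025), or 1.49-fold. FAS was higher by 0.65 ± 0.08 (adjusted p = 0.00018), or 1.57-fold: it read 6.57, 6.42 and 6.45 in empty vector cells and 7.16, 7.14 and 7.08 in EVI1-labelled cells. TNFSF9 was higher by 0.43 ± 0.10 (adjusted p = 0.0171), a call lost without replicate 1 of the TPA-treated EVI1-labelled cells (adjusted p = 0.0715). In these 5 genes no array of 1 population reached the range of the other, and the same held for CD70, which was not called. The share of all genes without overlap was not counted. TNFSF4 gave -0.59 ± 0.20 (adjusted p = 0.0825), and without that replicate 1 it was -0.81 ± 0.19 (adjusted p = 0.0164), or -0.77 ± 0.21 without replicate 3 of the TPA-treated empty vector cells (adjusted p = 0.0387). CD70 gave 0.29 ± 0.11 (adjusted p = 0.112), and 0.39 ± 0.11 without replicate 1 of the latter group (adjusted p = 0.046). TNFSF10 gave 0.50 ± 0.44 (adjusted p = 0.596), and was not called with or without replicate 3 of the TPA-treated EVI1-labelled cells. That array read 7.10, and replicates 1 and 2 of its group read 4.83 and 5.02, beside 5.22, 5.50 and 4.74 in empty vector cells.

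The response to TPA itself differed between the populations for 3 of 33 genes, all in the lower direction: each rose less in EVI1-labelled cells. Of all genes 1.98% were called, 0.936% with a higher and 1.05% with a lower response. For 2 of the 3 the difference was at least 1, as for 0.829% of all genes. The difference in response was -2.04 ± 0.27 for TNFSF15 (95% interval -2.63 to -1.46) and -1.52 ± 0.20 for TNF (-1.95 to -1.08), both with an adjusted p of 0.00179. For TNFRSF10B it was -0.56 ± 0.12 (-0.83 to -0.29; adjusted p = 0.0365), and that call was lost without any of 9 arrays in turn, with adjusted p up to 0.0966. It was kept only without replicate 2 of the TPA-treated empty vector cells or replicates 1 or 3 of the TPA-treated EVI1-labelled cells. For TNFRSF10B the populations differed in ethanol, and in TPA the difference was -0.17 ± 0.09 and not called. TNFRSF1B gave -0.53 ± 0.15 (adjusted p = 0.096), and -0.62 ± 0.14 without replicate 3 of the TPA-treated EVI1-labelled cells (adjusted p = 0.0312). TNFSF4 gave -0.87 ± 0.29 (adjusted p = 0.177), and -1.09 ± 0.25 without replicate 1 of that group (adjusted p = 0.0482). TNFSF10 had the largest value above 0 among the 33 genes, 1.22 ± 0.62 (adjusted p = 0.45). It was not called with or without replicate 3 of the TPA-treated EVI1-labelled cells, its highest array in that group. The difference in response and the comparisons above share their arrays.

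For several genes with a large TPA change no difference in response was called, and the intervals show what size the data allow. TNFRSF12A gave 0.03 (95% interval -0.32 to 0.38) and TNFRSF14 gave 0.00 (-0.51 to 0.52). TNFSF14 gave -0.13, with an interval from -0.66 to 0.39, and CD70 gave 0.29, from -0.04 to 0.62. TNFSF13B gave -0.08, from -0.89 to 0.74. The values of TNFRSF21 (-0.33, from -0.67 to 0.02), TNFRSF11A (-0.40, from -1.06 to 0.25) and TNFRSF10D (-0.30, from -0.77 to 0.17) were all below 0. Without replicate 3 of the TPA-treated EVI1-labelled cells none of these 8 was called: TNFSF13B gave -0.485 ± 0.22, TNFRSF21 -0.46 ± 0.13, TNFRSF11A -0.48 ± 0.32, TNFRSF10D -0.22 ± 0.23 and CD70 0.30 ± 0.17. TNFSF14 gave 0.095 ± 0.18, TNFRSF12A -0.10 ± 0.14 and TNFRSF14 -0.14 ± 0.23. The directions of TNFSF14, TNFRSF12A and TNFRSF14 thus turned, that of TNFRSF14 from 0.003.

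**Figure D3:**
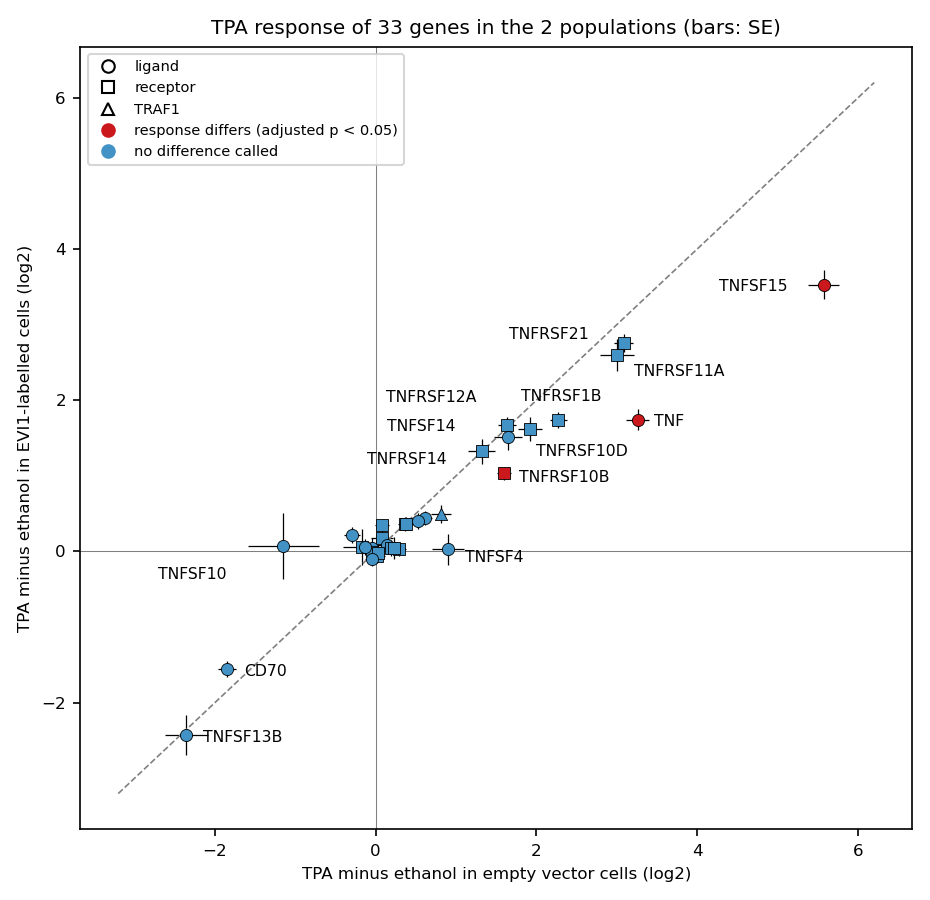
TPA minus ethanol on the log2 scale in empty vector cells (horizontal axis) and EVI1-labelled cells (vertical axis) for the 33 measured genes, with SE bars; the dashed line marks equal responses. TNFSF15, TNF and TNFRSF10B, in red, are the genes with a called difference in response, and all 3 lie below the line.

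**Figure D4:**
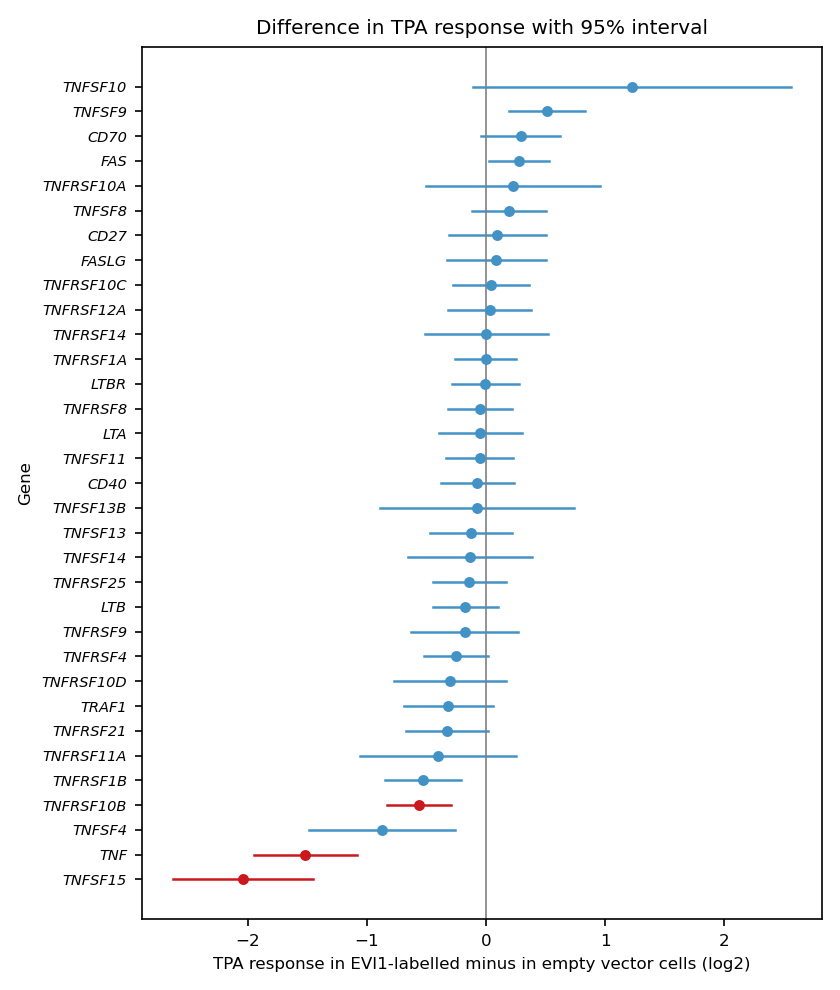
Difference in TPA response (EVI1-labelled minus empty vector cells, log2) for each of the 33 measured genes, with the 95% interval of the fit; red marks an adjusted p under 0.05. TNFSF15 is at -2.04 and TNF at -1.52, and the interval of TNFSF10 is the widest.

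Of the 33 genes 21 had several probe sets that name them alone. The other probe set of TNFSF15 gave TPA differences of 4.27 with the empty vector and 1.76 with the EVI1 label, and a difference in response of -2.51. That of TNFSF13B gave -2.12 and -2.25, that of TNFSF14 gave 1.56 and 1.70, and that of TNFRSF21 gave 3.23 and 3.19, so these 4 genes changed the same way on both probe sets. For TNFRSF10B the 2 other probe sets above background also read higher in TPA, by 1.03 and 0.74 in empty vector cells, but their differences in response were 0.00 and 0.26, where the brightest gave -0.56. Of FAS, the 2 other probe sets with a highest group mean over 5.07 read 0.61 and 0.51 higher in EVI1-labelled than in empty vector cells in TPA. The 2 with every group mean below 5.07 read 0.69 and 0.01. The TPA difference in empty vector cells moved by over 1.5 times with the mean over probe sets for 7 called members. TNFRSF11A (3.00 to 1.93), TNFRSF10D (1.92 to 1.04), TNFRSF10B (1.60 to 0.85), LTB (0.61 to 0.37) and TRAF1 (0.81 to 0.46) were still called. LTBR (0.37 to 0.09) and TNFRSF4 (0.29 to 0.12) were not. In EVI1-labelled cells the same held for TNFRSF11A (2.60 to 1.57), TNFRSF10D (1.62 to 0.82) and LTB (0.44 to 0.265), still called, and for LTBR, which was not. The chosen probe sets of TNFSF13, TNFRSF4 and TNFRSF10C are of the type that the array's design marks as open to cross-hybridisation.

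**Figure D5:**
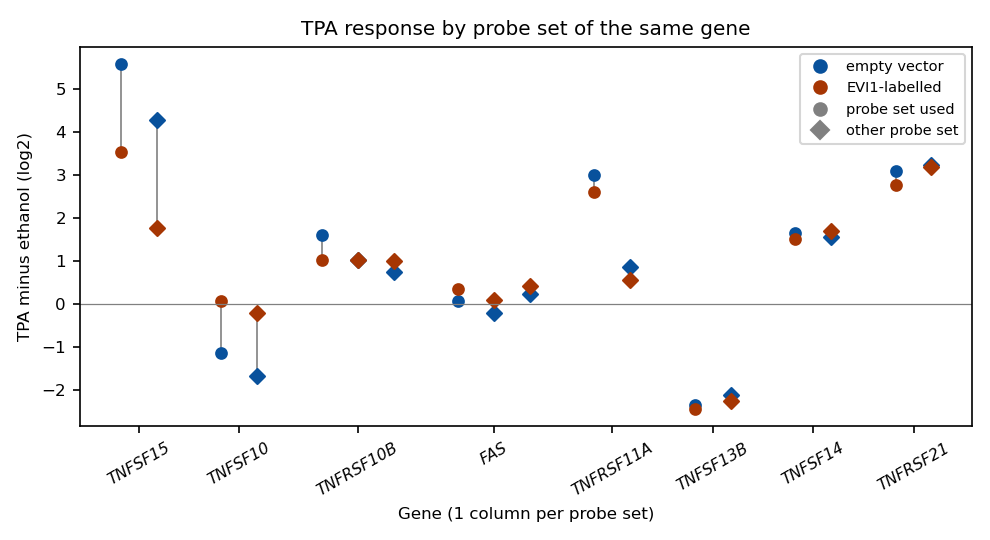
TPA minus ethanol on the log2 scale for each probe set of 8 genes whose highest group mean exceeded 5.07, in empty vector and EVI1-labelled cells, with the probe set used marked. The probe sets of TNFSF15 and TNFSF13B give the same direction, while those of TNFRSF10B order the populations differently.

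The other genes of the pathway are read against the shares of all genes called with TPA, 43.2% in empty vector and 40% in EVI1-labelled cells. Of 20 measured adaptors and signalling proteins, of 22 listed, 10 were higher and 4 lower in empty vector cells and 9 higher and 4 lower in EVI1-labelled cells, or 70% and 65% of them. Their median difference was 0.26 and 0.17. TANK, a TRAF-binding adaptor, rose by 1.70 ± 0.11 and 1.80 ± 0.11. MAP3K14, the kinase that starts the alternative NF-kB pathway, rose by 1.45 ± 0.19 and 1.28 ± 0.19, and TAB2, an adaptor of the kinase TAK1, by 1.33 ± 0.08 and 1.41 ± 0.08. TRAF3, which holds MAP3K14 in check, fell by 1.04 ± 0.10 and 1.2 ± 0.10, and TRAF5 by 0.58 ± 0.14 and 0.81 ± 0.14. TRAF5 was the only adaptor called between the populations in ethanol, 0.98 ± 0.14 higher in EVI1-labelled cells (adjusted p = 0.000902). In TPA 4 were higher and 4 lower, 40% of them beside 11.2% of all genes, with TRAF5 at 0.76 ± 0.14, TRAF4 at 0.42 ± 0.10, the death domain adaptor FADD at -0.56 ± 0.09 and the linear ubiquitin ligase subunit RBCK1 at -0.42 ± 0.11. None differed in response by the limma test, and 2 had an unadjusted p under 0.05.

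Of 14 measured death and brake proteins, of 16 listed, 7 were higher and 2 lower in TPA in empty vector cells, and 5 higher and 2 lower in EVI1-labelled cells, or 64.3% and 50% called beside 43.2% and 40% of all genes. Their median difference was 0.195 and 0.15. TNFAIP3, the NF-kB target A20 that shuts the pathway off, rose by 1.69 ± 0.13 in empty vector cells (adjusted p = 9.47e-08) and gave 0.32 ± 0.13 in EVI1-labelled cells (adjusted p = 0.077). It was the only gene of this list with a called difference in response, -1.37 ± 0.19 (adjusted p = 0.00203), and in TPA it was lower in EVI1-labelled cells, at -1.31 ± 0.13 (adjusted p = 3.36e-05), as was TNIP2, which binds it, at -0.40 ± 0.11. The deubiquitinase CYLD rose by 1.34 ± 0.12 and 1.33 ± 0.12, and CFLAR, which blocks caspase-8, by 1.22 ± 0.09 and 0.91 ± 0.09. TNFAIP8 fell by 2.74 ± 0.07 and 2.39 ± 0.07, BID by 0.28 ± 0.10 in empty vector cells and OTULIN by 0.42 ± 0.09 in EVI1-labelled cells.

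Of 11 genes for ligand shedding and control of TNF mRNA, 8 were higher and 2 lower in TPA in empty vector cells and 8 higher and 1 lower in EVI1-labelled cells, or 90.9% and 81.8% called beside 43.2% and 40% of all genes. Their median difference was 1.35 and 1.5. ADAM17, the protease that releases TNF from the cell surface, rose by 2.11 ± 0.08 and 2.15 ± 0.08. ZFP36, which speeds the decay of TNF mRNA, rose by 3.02 ± 0.10 and 3.09 ± 0.10. The RNA-binding protein gene ELAVL1 fell by 1.26 ± 0.07 and 1.02 ± 0.07, and the intramembrane protease gene SPPL2B fell by 0.37 ± 0.09 in empty vector cells. Between the populations in TPA, LITAF (0.54 ± 0.14, adjusted p = 0.0192) and ZFP36 (0.34 ± 0.10, adjusted p = 0.0329) were higher in EVI1-labelled cells. Their part in the TNF values was not tested. None of the 11 had a called difference in response by the limma test, and 1 had an unadjusted p under 0.05.

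Of 12 measured superfamily genes outside the 36, of 13 listed, 3 rose in empty vector cells: TNFRSF11B by 0.43 ± 0.13, RELT by 0.50 ± 0.10 and EDA2R by 0.54 ± 0.20. That is 25% of the list, below the 43.2% of all genes called in that comparison, of which 20.7% were higher. In EVI1-labelled cells none passed the limma test, and 1 had an unadjusted p under 0.05. Their median difference was 0.03 and -0.02. None of the 12 was called between the populations or for the difference in response by the limma test, with 1, 0 and 0 at an unadjusted p under 0.05 in ethanol, in TPA and for the difference.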

How the data were processed

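RNA of 12 samples in 4 groups of 3 was measured on Affymetrix U133 Plus 2.0 arrays from 250 ng of total RNA, per the labels. The deposited values are log2 RMA signals that the authors made; the submitters' processing notes name Affymetrix Expression Console 1.3. RMA corrects background and forces arrays to a common distribution, so a shift shared by most genes is removed, and no detection call was used. Of 54675 probe sets, 41097 name 1 gene in the platform annotation and were used.

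Differences were fitted with limma 3.58.1 in R 4.3.3 (1 mean per group, all 12 arrays, two-sided, with 8 residual degrees of freedom and 5.22 from the prior, Benjamini-Hochberg over 19775 genes at 0.05), and the script was tested on simulated data. The number of arrays limits the precision, with a median SE of 0.11 for a comparison of 2 groups. Nothing says whether replicates were separate transductions, so p-values measure only the spread between these samples. Groups came from the sample titles. All members are named; values in every array are given for members called with a difference of at least 1 and a higher group mean above 5.07, and from each pathway list up to 2 raised and 2 lowered genes per comparison are named, besides genes said to be chosen after their values were seen. TNFRSF11B is also named, to complete a count of 3. The members and lists were chosen with earlier results of these data known. Alternatives were another choice of probe set, a filter on dim genes, another normalization or centring, another variance prior, fewer groups, each array left out, and the replicate number as a block.

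The labels give every group replicates 1 to 3. After group means were subtracted, arrays of equal number in the TPA-treated populations correlated at 0.415, 0.130 and 0.151, each over 0.1. They were taken as paired there on this evidence alone, since no label states a shared day. The main fit does not use this pairing, which enters only in the alternative with the replicate number as a block. Arrays of unlike number were not correlated for comparison. Elsewhere at least 1 number of each pair of groups fell short of 0.1.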

Additional observations from a re-analysis of the deposited data

Results flagged for a closer look

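The response to TPA differed between the populations, by a test of the difference itself, for 3 genes. TNFSF15 had a difference in response of -2.04 and TNF of -1.52, and both kept the call in every alternative run and without each array in turn. For TNF, which has 1 probe set, another choice of probe set could not change the difference. TNFRSF10B had a difference of -0.56 on its brightest probe set, while its 2 other probe sets with a highest group mean over 5.07 gave 0.00 and 0.26. The cause of that disagreement was not tested.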

How the results depend on the processing

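Over 35 results for members called with a difference of at least 1 or between the populations and 697 tests under alternatives, 659 kept direction and call, 38 kept the direction and lost the call, and 0 reversed. Many of these tests could not reverse a result. In a comparison of 2 groups, leaving out an array of another group, fitting fewer groups or changing the prior leaves the difference as it is. So does another choice of probe set for a member with 1 probe set. The lost calls belong to TNFSF10 in TPA in empty vector cells, TNFRSF10B and FAS in ethanol, TNFSF9 between the populations in TPA, and TNFRSF10B for the difference in response. The count of 2 members called between the populations in ethanol was 0 with the mean over probe sets, 1 with the probe set of largest variance and 4 with only the groups compared. Leaving out each array gave 18 to 21 members for TPA in empty vector cells, 18 to 19 in EVI1-labelled cells, 0 to 4 between the populations in ethanol, 5 to 6 in TPA and 2 to 4 for the difference in response. The ethanol count was 0 without any of the EVI1-labelled ethanol arrays or replicates 2 and 3 of the empty vector ethanol arrays, and 4 without replicate 3 of the TPA-treated EVI1-labelled cells; the cause was not tested. With the replicate number as a block the 5 counts were 20, 18, 3, 5 and 3. In the comparison that the numbers were taken to pair, the populations in TPA, the block kept the same 5 members. Scaling alternatives moved the median of all genes by at most 0.02. Dim genes have compressed differences, and no floor is stated for a low signal.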

Other observations

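All 11 interferon-response genes, chosen after their values were seen, were highest in replicate 3 within both groups of EVI1-labelled cells. In ethanol their mean in these cells was 5.88 in replicate 3 against 5.41 and 5.30 in replicates 1 and 2. In replicate 3 of empty vector cells 2 of the 11 were the highest in ethanol and 0 in TPA. Their mean in TPA-treated empty vector cells was lowest in replicate 3, at 7.20 against 7.905 and 8.01 in replicates 1 and 2. The replicate 3 arrays of the TPA-treated populations thus moved in opposite directions, and the part of this in the comparison of the populations in TPA was not tested. The share of all genes highest in replicate 3 was not counted. Neighbouring genes of the measured members were also looked at after the values were seen, and are given here only for TNF and TNFSF15. Of the measured genes around TNF, up to 10 on each side along chromosome 6, 18 were left once members of the list were taken out. Their median TPA difference was 0.17 with the empty vector and 0.04 in EVI1-labelled cells. Around TNFSF15 on chromosome 9 the medians over 19 genes, taken the same way, were 0.05 and 0.01.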
